A study of Mus musculus with 6 samples.

Results

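The BCL2 family genes described here are 10 members that either hold cells alive or kill them: Bcl2l1, Mcl1 and Bcl2 on the survival side, the pore formers Bax and Bak1, and Bid, Bcl2l11, Bbc3, Pmaip1 and Bad, which carry only a BH3 domain. They were chosen by gene symbol under a rule that uses no measured value, though with earlier results of these data known. All 10 were found once in each deposited table of 17691 genes. The cells were TER119-negative erythroblasts, nucleated red cell precursors without the late surface antigen TER119, isolated from C57BL/6J fetal livers and grown with erythropoietin. The 3 CDs libraries came from cells given carbon dots, nanometre-sized carbon particles made from the plant Codonopsis pilosula, at 1 ug/ml for 30 h. The 3 untreated libraries came from the same kind of cells in the same medium without the particles. The labels give no genetic change in either group and do not say whether libraries of a group came from separate cultures, litters or pooled embryos.

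Mitochondrial cell death is decided by contacts between these proteins. BAX and BAK open the outer mitochondrial membrane and let cytochrome c out, which starts the caspases. BCL-XL (from Bcl2l1), MCL1 and BCL2 hold them in check, and the BH3-only proteins relieve that check. In erythroblasts erythropoietin keeps cells alive largely through BCL-XL, and it keeps BIM, the product of Bcl2l11, low. The comparison asks whether carbon dots shift these transcripts, and the balance of Bcl2l1 to Bcl2l11 was taken as its summary.

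The sequence just before a listed start of transcription is shown for the pair that forms this balance and for Bcl2, the member that differed most between libraries. Each run is the 250 bases upstream of the 5′-most start that the RefSeq promoter table holds for the gene (GRCm38.p6), read 5′ to 3′ on the gene's strand. The Bcl2l1 run lies inside the annotated gene span (152758732 to 152833803), so the sequence before that gene's annotated 5′ end is not shown. Capitals mark a FOXO motif (GTAAACA) or a GC box (GGGCGG) on either strand.
Bcl2l1, chr2:152831729-152831978, minus strand: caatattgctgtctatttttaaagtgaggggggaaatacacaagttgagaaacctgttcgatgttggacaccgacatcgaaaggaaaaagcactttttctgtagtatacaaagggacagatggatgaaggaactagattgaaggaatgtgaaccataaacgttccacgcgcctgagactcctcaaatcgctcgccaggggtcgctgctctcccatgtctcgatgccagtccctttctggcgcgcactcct
Bcl2l11, chr2:128125788-128126037, plus strand: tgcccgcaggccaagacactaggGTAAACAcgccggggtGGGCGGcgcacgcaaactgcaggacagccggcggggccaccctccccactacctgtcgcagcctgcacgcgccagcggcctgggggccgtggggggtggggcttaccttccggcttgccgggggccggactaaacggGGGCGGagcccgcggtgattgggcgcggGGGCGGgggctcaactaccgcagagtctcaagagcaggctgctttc
Bcl2, chr1:106714291-106714540, minus strand: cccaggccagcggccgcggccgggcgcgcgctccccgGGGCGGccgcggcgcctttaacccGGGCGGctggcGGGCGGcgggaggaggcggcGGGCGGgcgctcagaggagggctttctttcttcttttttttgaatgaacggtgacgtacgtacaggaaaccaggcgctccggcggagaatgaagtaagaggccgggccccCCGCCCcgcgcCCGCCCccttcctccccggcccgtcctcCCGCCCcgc
The Bcl2l11 window held 1 FOXO motif and 3 GC boxes, the Bcl2 window held 7 GC boxes, and the Bcl2l1 window held none of either. Over all 32851 windows of this length in the table, 3.17% held GTAAACA and 32.7% held GGGCGG. The GATA motif AGATAA, present in 9.99% of windows, and the STAT motif TTCNNNGAA, present in 7.02%, were in none of these 3 windows. Of the 9 members with a window in the table, 1 held AGATAA (Bcl2l1, in the window of its start farthest downstream), 0 held TTCNNNGAA, 2 held GTAAACA (Bcl2l11 and Bbc3), 7 held GGGCGG and 2 held CACGTG, an E-box present in 6.02% of windows. A member was counted if any of its windows held the motif, over 15 windows with up to 3 per gene. The shares are per single window, so counts of members and shares of windows are not like for like. All motif hits are matches of letters and were not tested as binding sites.

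Library totals ran from 17695997 to 20066581 expected counts. The libraries numbered 3 stood apart from the others in both groups. Erythroblast markers, globins among them, took 5.81% to 7.03% of counts in CDs and 6.13% to 6.94% in untreated libraries. Macrophage markers took 0.0332%, 0.137% and 0.440% in CDs 1 to 3, against 0.0144%, 0.0426% and 0.350% in untreated 1 to 3. Of the 9 tested, 8 were higher in the CDs library of all 3 numbered pairs, as were 30.2% of all genes. Granulocyte markers took 0.0375% to 0.222% in CDs and 0.0261% to 0.211% in untreated libraries. In CDs against untreated libraries the shares were 0.00202% to 0.00875% against 0.00157% to 0.0142% for mast cells and basophils, 0.00923% to 0.0131% against 0.00956% to 0.00996% for megakaryocytes, and 0.00600% to 0.00806% against 0.00561% to 0.00738% for lymphoid cells. Endothelial markers took 0.00130% to 0.00857% in CDs and 0.000643% to 0.00663% in untreated libraries, and hepatocyte markers 0.0234% to 0.0454% in CDs and 0.0159% to 0.0344% in untreated libraries. No listed marker in the table was at 0 in every library. In bulk RNA, fewer cells of a type and less RNA per cell cannot be told apart.

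None of the 10 members differed between CDs and untreated libraries in edgeR's quasi-likelihood test, with adjusted p-values of 0.994 to 0.997. The same test called 0.0% of the 12283 genes tested. Of the members, 0 also had an unadjusted p under 0.05, against 1.03% of all genes. DESeq2 and limma-voom without a replicate block also gave 0 members at either threshold, against 0.114% (DESeq2) and 0.0% (limma-voom) of genes adjusted and 1.09% and 1.08% unadjusted. Log2 fold changes lay above 0 in 7 members and below 0 in 3, with a median of 0.17, against 0.01 over all genes tested. This tally turned with 1 library: without CDs 3 it was 1 above and 9 below (median -0.20, all genes -0.02), and without untreated 3 it was 9 above and 1 below (median 0.50, all genes 0.02). Deviations from the group means correlated within numbers 1 and 3 (0.91 and 0.94), and less within number 2 (0.34). Untreated 2 followed CDs 1 more closely (0.68) than CDs 2. The pairs by number rest on these values and not on the labels. A fit with the number as a block removes the spread between pairs. With this block edgeR called 0.0407% of genes and 0 members, limma-voom 0.057% of genes and 0 members, and DESeq2 9.85% of genes (7.76% in the higher direction) and 1 member, Bcl2. At an unadjusted p under 0.05 the blocked edgeR fit held 5 members, all higher with CDs (Bcl2l1, Mcl1, Bcl2, Bcl2l11 and Pmaip1), against 29.9% of all genes in either direction and 18.0% in the higher one.

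**Figure D1:**
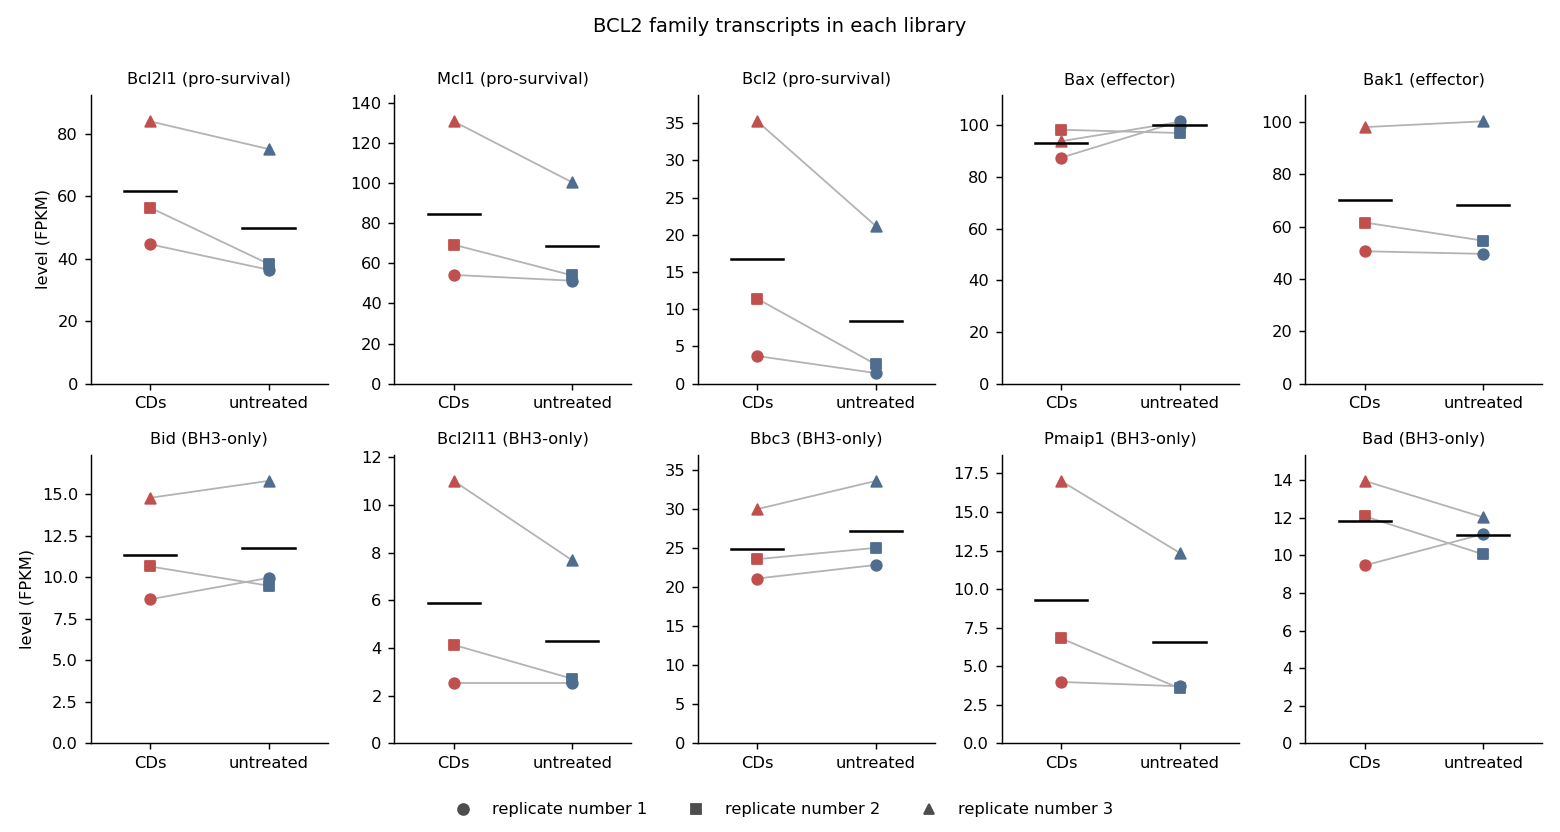
Level of each of the 10 BCL2 family genes (FPKM, linear axes from 0) in CDs and untreated libraries; marker shapes give the replicate number, grey lines join libraries of the same number and black bars are group means. In every member but Bax the library numbered 3 lies highest in each group, while Bax stays between 87.5 and 101.6 FPKM in all 6.

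Bcl2, the founding survival gene (Entrez 12043, chromosome 1, 106538176 to 106714290, GRCm38.p6), was the most variable member. It measured 3.72, 11.4 and 35.2 FPKM in CDs 1 to 3, against 1.43, 2.59 and 21.2 FPKM in untreated 1 to 3. FPKM divides counts by gene length and library depth, so levels of different genes can be compared. The groups overlapped, since CDs 1 and CDs 2 lay under untreated 3, while within each number the CDs library was the higher. The log2 fold change from counts was 0.98 ± 1.25 (SE, n = 3 per group, edgeR adjusted p = 0.994) without the block. With the block it was 1.34 ± 0.31 (edgeR adjusted p = 0.105), and 1.36 in DESeq2 (adjusted p = 5.80e-05), with pair differences of 1.35, 2.13 and 0.70. Over all alternatives the adjusted p ran from 9.42e-09 to 1.00.

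The value for Bcl2 moved with single libraries. Without CDs 3 and without the block it was -0.12, and without untreated 3 it was 2.99, against 0.48 without untreated 1 and 0.55 without untreated 2. With the block and without both libraries numbered 3, DESeq2 gave 1.76 (adjusted p = 9.42e-09) and edgeR 1.77 (adjusted p = 0.000102). Those fits called 7.12% (DESeq2) and 15.2% (edgeR) of all genes. Without both numbered 2 the values were 0.97 (DESeq2 adjusted p = 0.00153) and 0.90 (edgeR adjusted p = 0.00418), in fits that called 1.82% and 7.16% of all genes. Without both numbered 1 they were 1.39 (DESeq2 adjusted p = 0.106) and 1.35 (edgeR adjusted p = 0.287). Markers of some other cell types moved beside it in pairs 1 to 3, with median log2 differences of 1.5, 2.07 and 0.46 for macrophages and 1.57, 1.37 and 0.43 for endothelial cells. The medians were 0.42, 0.66 and 0.06 for granulocytes and 0.27, 0.58 and 0.35 for hepatocytes. Those of mast cells and basophils (0.23, 0.27 and -0.70) and megakaryocytes (0.49, 0.43 and -0.31) turned negative in pair 3. Lymphoid medians stayed small (0.07, 0.02 and 0.10). Higher in the CDs library of all 3 pairs were 8 of 9 tested macrophage, 4 of 4 endothelial, 5 of 9 granulocyte and 5 of 6 hepatocyte markers. The same held for 0 of 4 mast cell and basophil, 1 of 6 megakaryocyte and 1 of 2 lymphoid markers, and for 30.2% of all genes. Erythroblast markers had medians of -0.08, -0.09 and -0.13, with 0 of 8 higher and 3 of 8 lower in all 3 pairs. The part of these cell types in the Bcl2 result was not tested.

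Bcl2l1 encodes BCL-XL, the main survival protein of maturing erythroblasts (Entrez 12048, chromosome 2, 152758732 to 152833803). It measured 44.6, 56.4 and 83.9 FPKM in CDs 1 to 3 and 36.5, 38.3 and 75.1 FPKM in untreated 1 to 3. The CDs library was higher in each pair, by 0.26, 0.49 and 0.12 on the log2 scale, although untreated 3 exceeded CDs 1 and CDs 2. The log2 fold change was 0.26 ± 0.34 without the block and 0.29 ± 0.08 with it (SE, n = 3 per group, edgeR adjusted p = 0.994 and 0.109). It passed in a single alternative, the blocked edgeR fit without both libraries numbered 3 (0.36, adjusted p = 0.0109), in which 15.2% of all genes passed, 12.2% in the higher direction. Without the block the value was 0.02 without CDs 3 and 0.63 without untreated 3.

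Mcl1 encodes a short-lived survival protein that early erythroid cells depend on (chromosome 3, 95656944 to 95663179). It was the most abundant of the 3 survival transcripts in every library, at 54.2, 69.2 and 130.7 FPKM in CDs 1 to 3 and 51.3, 54.0 and 100.3 FPKM in untreated 1 to 3. CDs 3 and untreated 3 stood above the other 4 libraries. Pair differences were 0.05, 0.35 and 0.35, and the log2 fold change was 0.28 ± 0.41 (SE, n = 3 per group, edgeR adjusted p = 0.994), or 0.25 ± 0.08 with the block (adjusted p = 0.122). Without CDs 3 it was -0.14, and without untreated 3 it was 0.63.

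The pore formers differed from each other. Bax (chromosome 7, 45461695 to 45466903) was the steadiest member, at 87.5, 98.3 and 93.9 FPKM in CDs 1 to 3 and 101.6, 97.0 and 101.3 FPKM in untreated 1 to 3. Its groups overlapped in FPKM and just failed to overlap in CPM, counts scaled to library size with TMM, as happened in the lower direction for 2.33% of all genes and in either direction for 4.69%. The log2 fold change was -0.13 ± 0.10 (SE, n = 3 per group, edgeR adjusted p = 0.994), or -0.13 ± 0.07 with the block (adjusted p = 0.270). Bak1 (chromosome 17, 27019812 to 27028627) measured 50.6, 61.5 and 97.98 FPKM in CDs 1 to 3 and 49.6, 54.6 and 100.2 FPKM in untreated 1 to 3. Its CDs and untreated libraries lay close within each number, and those numbered 3 were about as far above the rest as for Bcl2l1. The log2 fold change was 0.02 ± 0.35 (edgeR adjusted p = 0.997), or 0.03 ± 0.07 with the block (adjusted p = 0.783), and it was -0.27 without CDs 3, -0.16 without untreated 1 and -0.11 without untreated 2.

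Bcl2l11 encodes BIM, an activator of BAX and BAK that FOXO3 is known to induce (chromosome 2, 128126038 to 128162547). It was the lowest member in the CDs and untreated libraries taken as group means, at 2.53, 4.13 and 11.0 FPKM in CDs 1 to 3 and 2.53, 2.71 and 7.68 FPKM in untreated 1 to 3. The first CDs and untreated libraries were alike, and the CDs library was higher in the other two pairs, by 0.59 and 0.52 on the log2 scale against -0.05 in pair 1. Its fold change was 0.44 ± 0.72 on the log2 scale (SE, n = 3 per group, edgeR adjusted p = 0.994), or 0.37 ± 0.14 with the block (adjusted p = 0.150). It was -0.38 without CDs 3 and 1.15 without untreated 3. Foxo3 itself is among the control genes counted below.

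Pmaip1 encodes NOXA, a BH3-only protein that binds MCL1 (Entrez 58801, chromosome 18). It measured 3.98, 6.81 and 17.0 FPKM in CDs 1 to 3 and 3.70, 3.57 and 12.4 FPKM in untreated 1 to 3. As for Bcl2l11, the libraries numbered 3 were highest and CDs 2 stood above untreated 2. On the log2 scale CDs exceeded untreated by 0.47 ± 0.72 (SE, n = 3 per group, edgeR adjusted p = 0.994), or 0.48 ± 0.16 with the block (adjusted p = 0.135), with pair differences of 0.08, 0.91 and 0.43. It was -0.26 without CDs 3 and 1.28 without untreated 3.

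Bbc3, the gene of the p53-inducible killer PUMA (chromosome 7, 16308398 to 16318334), was lower in the CDs library of all 3 pairs by a narrow margin. It measured 21.1, 23.6 and 30.0 FPKM in CDs 1 to 3 and 22.9, 25.1 and 33.7 FPKM in untreated 1 to 3, with overlapping groups. Pair differences of -0.11, -0.11 and -0.16 were the most even of any member, and the log2 fold change was -0.13 ± 0.19 (SE, n = 3 per group, edgeR adjusted p = 0.994), or -0.13 ± 0.06 with the block (adjusted p = 0.216). The evenness and shared direction rest on the pairing by number, since CDs 2 (43.1 CPM) lay just above untreated 1 (43.0 CPM). In CPM, being lower in all 3 pairs was shared by 26.2% of all genes. Bax was so as well in CPM, though by -0.00 in pair 2, where its FPKM was the higher in CDs. Being higher in all 3, as Bcl2l1, Mcl1, Bcl2 and Pmaip1 were, was shared by 30.2%. Without untreated 3 the Bbc3 value was 0.02.

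Bid and Bad showed no common direction across pairs. Bid, which links death receptors to mitochondria after cleavage by caspase 8 (chromosome 6, 120893119 to 120917062), measured 8.67, 10.7 and 14.8 FPKM in CDs 1 to 3 and 9.96, 9.49 and 15.8 FPKM in untreated 1 to 3. Its log2 fold change was -0.07 ± 0.27 (SE, n = 3 per group, edgeR adjusted p = 0.994), 0.17 without untreated 3 and 0.07 without CDs 1. Bad, a BH3-only protein silenced by phosphorylation under growth factor signals (chromosome 19, 6941861 to 6951905), measured 9.47, 12.1 and 14.0 FPKM in CDs 1 to 3 and 11.1, 10.1 and 12.03 FPKM in untreated 1 to 3. Its log2 fold change was 0.08 ± 0.19 (edgeR adjusted p = 0.994) and -0.04 without CDs 3.

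**Figure D2:**
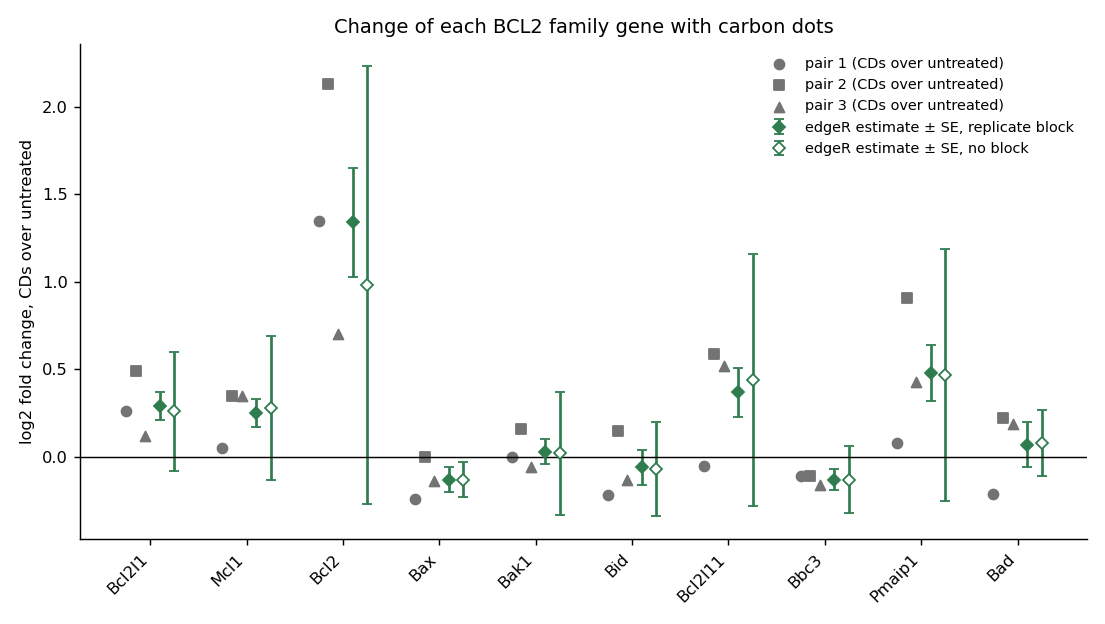
Log2 fold change of each member, CDs over untreated: grey symbols are the 3 pair differences in log2 CPM, filled diamonds the edgeR estimate with the replicate block and open diamonds the estimate without it, with SE bars. Bcl2 has the largest estimates (1.34 with and 0.98 without the block), and the SE bar without the block is the wider one for every member.

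Most members also differed by replicate number. In the blocked edgeR fit the term for the number, a test added after the data had been seen, passed for 8 of the 10 members, all but Bax and Bad, with adjusted p-values from 0.00141 for Bak1 to 0.0113 for Bid. It passed for 59.7% of all genes, so most genes at large shared this trait. With limma-voom it passed for 8 members and 59.3% of genes. Whether the share of the 10 members differs from that of all genes was not tested. The size varied among members. In the CDs group library 3 exceeded the mean of the other two 4.66 times for Bcl2, 3.31 times for Bcl2l11, 3.15 times for Pmaip1, 2.12 times for Mcl1 and 1.66 times for Bcl2l1, against 1.01 times for Bax. In the untreated group the same values were 10.5, 2.93, 3.40, 1.91 and 2.01 times, against 1.02 times for Bax. Of all 6 libraries, CDs 3 was highest and untreated 3 next in each of Bcl2, Bcl2l1, Mcl1, Bcl2l11 and Pmaip1, and the macrophage, granulocyte, endothelial, hepatocyte and lymphoid markers had the same 2 libraries on top. Their part in these differences was not tested.

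**Figure D3:**
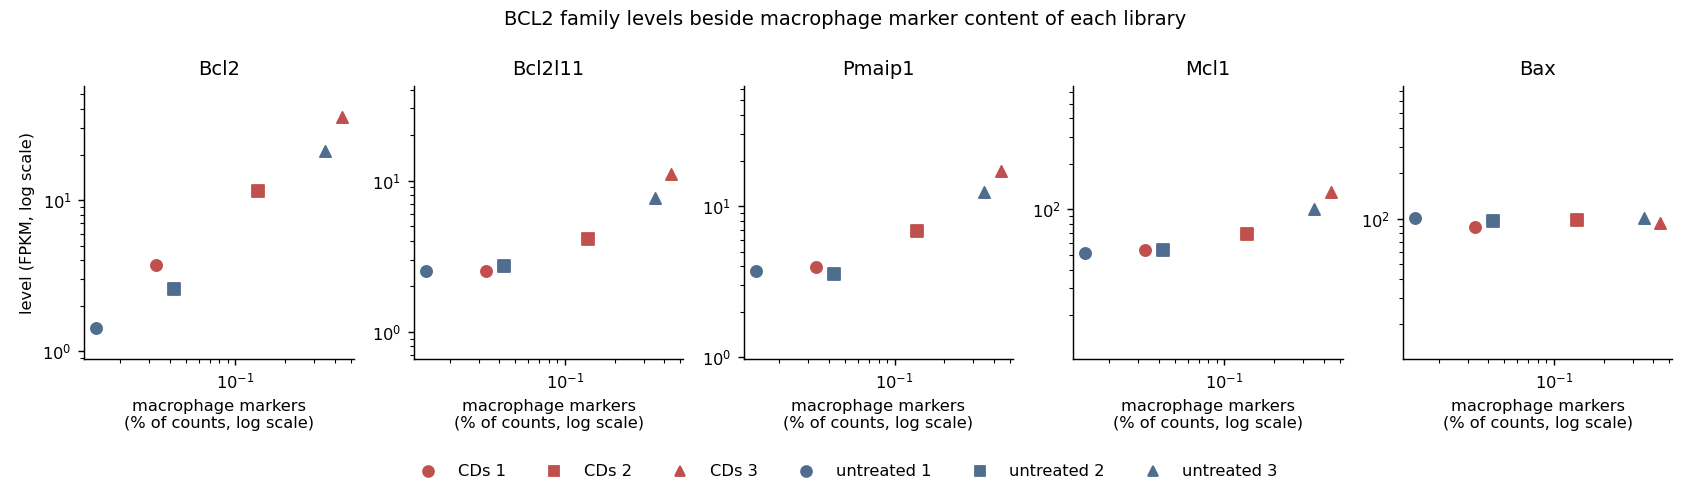
Level of Bcl2, Bcl2l11, Pmaip1, Mcl1 and Bax (FPKM, log axis of the same span in each panel) against the share of counts in macrophage markers (%, log axis) for each of the 6 libraries. Libraries with 0.350% and 0.440% macrophage markers, untreated 3 and CDs 3, have the highest levels of the first 4 genes, while Bax lies on a flat line.

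The ratio of Bcl2l1 to Bcl2l11, formed from FPKM, showed no difference beyond the spread within the groups. It was 17.6, 13.6 and 7.62 in CDs 1 to 3 and 14.4, 14.1 and 9.77 in untreated 1 to 3, with means of 13 ± 5.04 in CDs and 12.8 ± 2.60 in untreated libraries (SD, n = 3 each). The mean log2 ratio differed by -0.04 (two-sided exact permutation p = 0.8, the smallest possible being 0.1). By number the CDs library was higher in pair 1 and lower in pairs 2 and 3, with log2 differences of 0.29, -0.05 and -0.36 (exact sign-flip permutation p = 0.75, smallest possible 0.25). The difference was 0.30 without CDs 3 and -0.30 without CDs 1, so its sign rests on single libraries. Both libraries numbered 3 had the lowest ratio of their group.

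All 21 ratios of the 3 survival genes to the 7 death genes were formed, as descriptions chosen after the values were known. They reuse 3 numerators and 7 denominators and are not separate observations. The CDs library was higher in all 3 pairs for 16 of them and lower in all 3 for 1, Mcl1 to Pmaip1. Over all ordered ratios of 2 tested genes, 27.3% were higher in all 3 pairs, and the same share lower by construction. Bcl2l1 to Pmaip1 (0.19, -0.38 and -0.30) and Mcl1 to Bcl2l11 (0.08, -0.25 and -0.14) followed Bcl2l1 to Bcl2l11, higher in pair 1 and lower in pairs 2 and 3 on the log2 scale. Bcl2 was higher against all 7 death genes in every pair, Mcl1 against 5 and Bcl2l1 against 4. The groups did not overlap for 3 ratios, all higher in CDs, against 2.52% of all ordered ratios in that direction. Bcl2l1 to Bak1 was 0.882, 0.916 and 0.857 in CDs 1 to 3, against 0.735, 0.702 and 0.749 in untreated 1 to 3. This ratio hardly moved with the replicate number, with SDs of 0.0296 in CDs and 0.0244 in untreated libraries (n = 3 each). Bcl2l1 to Bid was 5.15, 5.29 and 5.68 in CDs libraries, against 3.66, 4.04 and 4.75 in untreated ones. Mcl1 to Bak1 was 1.07, 1.12 and 1.33 in CDs libraries, against 1.03, 0.988 and 1.00 in untreated ones. Mcl1 to its NOXA partner Pmaip1 was 13.6, 10.2 and 7.68 in CDs libraries, against 13.9, 15.1 and 8.11 in untreated ones.

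**Figure D4:**
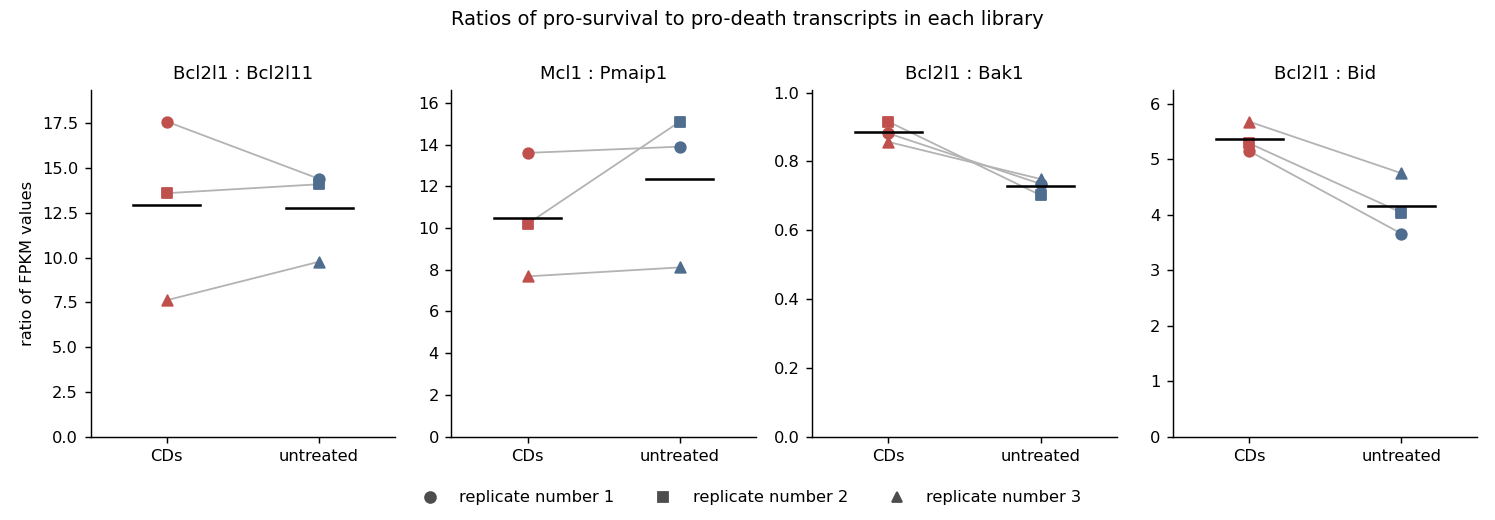
Ratio of FPKM values for 4 pairs of survival and death transcripts in CDs and untreated libraries, with marker shapes for the replicate number, grey lines joining equal numbers and black bars for group means. Bcl2l1 to Bak1 and Bcl2l1 to Bid separate the groups in all 6 libraries, whereas Bcl2l1 to Bcl2l11 overlaps and changes direction between pairs.

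Summed over the 10 genes, survival transcripts made up 35.8%, 38.7% and 47.3% of the FPKM in CDs 1 to 3 and 30.7%, 31.9% and 41.0% in untreated 1 to 3. The effectors Bax and Bak1 took 48.2%, 45.1% and 36.3% in CDs 1 to 3 and 52.0%, 51.0% and 42.0% in untreated 1 to 3. The 5 BH3-only genes held a nearly constant share, from 16.0% to 16.4% in CDs and from 17.0% to 17.3% in untreated libraries. Within the survival genes, Bcl2 made up 3.63%, 8.33% and 14.1% in CDs 1 to 3, against 1.60%, 2.73% and 10.8% in untreated 1 to 3. These shares are descriptions of a chosen list and carry no test.

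**Figure D5:**
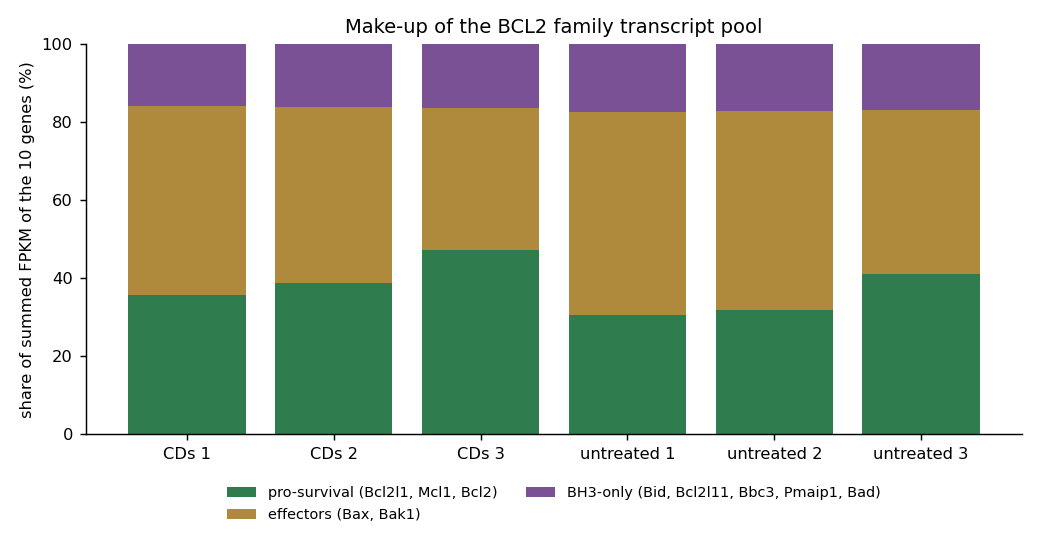
Share (%) of the summed FPKM of the 10 genes held by survival genes, effectors and BH3-only genes, in CDs 1 to 3 on the left and untreated 1 to 3 on the right. Survival genes run from 35.8% to 47.3% in CDs and from 30.7% to 41.0% in untreated libraries, and BH3-only genes stay between 16.0% and 17.3%.

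Among the rest of the family, none of 4 tested survival genes and 2 tested BH3-only or effector genes passed in edgeR over all 6 libraries, with or without the block. Of all genes, 0.0407% passed there with the block and 0.0% without it. Bcl2a1d and Bcl2a1b, near-identical copies of the survival gene A1 between which reads may be divided, had log2 fold changes of 0.48 ± 1.68 and 0.32 ± 1.41 (SE, n = 3 per group). Bcl2a1d measured 0.34, 3.79 and 11.3 FPKM in CDs 1 to 3 and 0.09, 1.02 and 9.86 FPKM in untreated 1 to 3, again highest in the libraries numbered 3. Leaving out CDs 3 gave -0.78 for Bcl2a1d and -0.98 for Bcl2a1b, and leaving out untreated 3 gave 3.15 and 2.95. Bmf, a BH3-only gene, had 0.67 ± 0.95, with pair differences of 1.37, 1.27 and 0.33, and was 0.04 without CDs 3 and 1.93 without untreated 3. Bik, another, had -0.18 ± 0.46. The blocked edgeR fit without both libraries numbered 3, in which 15.2% of all genes passed, called Bcl2a1d (1.90, adjusted p = 0.00853), Bcl2a1b (1.54, adjusted p = 0.0103) and Bmf (1.29, adjusted p = 0.00784). DESeq2 did not (adjusted p = 0.308, 0.135 and 0.194). Bok and Hrk, at no more than 0.1 FPKM, were too low to test.

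The more distant relatives held the member of the wider family with the largest change. Bnip3, a mitophagy receptor with a BH3-like motif, measured 148.9, 124.0 and 55.6 FPKM in CDs 1 to 3 and 41.0, 32.6 and 25.7 FPKM in untreated 1 to 3. The lowest CDs library exceeded the highest untreated one, as in 2.36% of all genes, and library 3 was the lowest of each group, the reverse of the order in Bcl2. Its log2 fold change was 1.71 ± 0.43 (SE, n = 3 per group, edgeR adjusted p = 0.994), or 1.62 ± 0.19 with the block (edgeR adjusted p = 0.0916, DESeq2 adjusted p = 2.87e-14, range over alternatives 3.96e-39 to 1.00). The blocked DESeq2 fit called 9.85% of all genes. DESeq2 also called Bnip3 without pair 1, 2 or 3 (adjusted p = 0.0023, 1.57e-09 and 3.96e-39). Those fits called 0.351%, 1.82% and 7.12% of all genes. Blocked edgeR called Bnip3 without number 2 and number 3 (adjusted p = 0.022 and 2.16e-10), where 7.16% and 15.2% of all genes passed. It did not without number 1 (adjusted p = 0.26). With 1 library left out and no block, the Bnip3 value ran from 1.41 (without CDs 1) to 2.04 (without CDs 3). Bnip1, a SNARE protein of the endoplasmic reticulum, had -0.42 ± 0.16 (edgeR adjusted p = 0.994). Its groups did not overlap either, as in the lower direction for 2.33% of all genes. It measured 13.1, 13.8 and 10.9 FPKM in CDs 1 to 3 and 16.9, 17.3 and 15.6 FPKM in untreated 1 to 3. Blocked edgeR without both libraries numbered 2 called Bnip1 (-0.49, adjusted p = 0.0402), where 7.16% of all genes passed. Of the 7 tested relatives 3 lay above 0 and 4 below (5 and 2 without CDs 3), and 0 passed in edgeR over all 6 libraries. There edgeR called 0.0% of all genes without the block and 0.0407% with it.

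Downstream of the mitochondria, 0 of 14 apoptosome and caspase genes passed in edgeR, 7 above and 7 below 0, with a median log2 fold change of 0.02. Of all 12283 genes tested, edgeR called 0.0% without the block and 0.0407% with it, so counts of 0 say nothing particular about these lists. Without the block 6372 of all genes lay above 0 and 5911 below (median 0.01). Cycs, cytochrome c, had -0.23 ± 0.21 and Diablo, an antagonist of caspase inhibitors, -0.24 ± 0.22 (SE, n = 3 per group), both lower in all 3 pairs. Blocked edgeR without both libraries numbered 3 called Cycs (-0.25, adjusted p = 0.0437), where 15.2% of all genes passed. Of 5 caspase inhibitor genes 0 passed, with Xiap at 0.16 ± 0.18 and Birc5, survivin, at -0.20 ± 0.24. Of 6 outer membrane partners 0 passed and 5 lay below 0 (median -0.11; 3 below and median 0.01 without CDs 3), among them Bag1 (-0.12 ± 0.17) and Mtch2, a receptor for BID (-0.12 ± 0.18). Among 7 death receptor genes 0 passed in edgeR and 6 lay above 0 (median 0.22), against 2 without CDs 3 (median -0.05). Examples were Fadd (0.14 ± 0.16) and Tradd (0.22 ± 0.29), both adaptors, and Tradd was -0.05 without CDs 3. Cflar, a decoy that restrains caspase 8, had 0.48 ± 0.69, -0.25 without CDs 3 and 1.25 without untreated 3. The blocked DESeq2 fit called it (0.47, adjusted p = 0.0304, range over alternatives 0.0304 to 1.00), but not without any 1 of the 3 pairs (adjusted p = 0.544, 0.537 and 0.235 without pairs 1, 2 and 3). Blocked edgeR called it without both libraries numbered 3 (0.49, adjusted p = 0.0304), and not without number 1 or 2 (adjusted p = 0.26 and 0.0535). The calls of Cflar came from fits that called 9.85% (DESeq2) and 15.2% (edgeR) of all genes.

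Of 10 tested receptors and transcription factors that control the family, 0 passed in edgeR over all 6 libraries, 4 lay above and 6 below 0. Over all genes edgeR called 0.0% without the block and 0.0407% with it. Without the block 6372 lay above and 5911 below 0. Trp53, which encodes p53, an activator of Bbc3, Pmaip1 and Bax, measured 102.4, 101.7 and 94.8 FPKM in CDs 1 to 3, against 119.2, 117.6 and 117.4 FPKM in untreated 1 to 3. Its groups did not overlap, as happened in CPM in the lower direction for 2.33% of all genes and in either direction for 4.69%. The term for the replicate number did not pass (edgeR adjusted p = 0.266). The log2 fold change was -0.27 ± 0.11 (SE, n = 3 per group, edgeR adjusted p = 0.994), or -0.27 ± 0.06 with the block (edgeR adjusted p = 0.0916, DESeq2 adjusted p = 0.0277, range over alternatives 0.0277 to 1.00). The DESeq2 call, in a fit that called 9.85% of all genes, was lost without pair 1, 2 or 3 (adjusted p = 0.997, 0.404 and 0.389). Blocked edgeR called Trp53 without number 3 alone (-0.25, adjusted p = 0.0419), where 15.2% of all genes passed. Ddit3, the stress factor CHOP, which can induce Bcl2l11, was also among those 2.33% of genes, at -0.16 ± 0.09 (edgeR adjusted p = 0.994). Nfkb1, a subunit of NF-kB, was low, at 0.12, 0.40 and 1.23 FPKM in CDs 1 to 3 and 0.31, 0.93 and 3.37 FPKM in untreated 1 to 3. It was lower in all 3 pairs (-1.47 ± 1.06, edgeR adjusted p = 0.994) and the blocked DESeq2 fit called it (adjusted p = 0.0232, range over alternatives 0.0123 to 1.00). DESeq2 did not without pair 1 or 3 (adjusted p = 0.35 and 0.489) and gave no adjusted p without pair 2. Blocked edgeR called Nfkb1 without number 2 (adjusted p = 0.0123) and number 3 (adjusted p = 0.02), where 7.16% and 15.2% of all genes passed. The gene was not called without number 1 (edgeR adjusted p = 0.26). Its value was -0.42 without untreated 3 and -2.57 without CDs 3. Of 6 tested genes of MCL1 and BIM protein turnover 0 passed, with the ubiquitin ligase subunits Btrc at -0.16 ± 0.12 and Fbxw7 at 0.13 ± 0.13.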

How the data were processed

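Polyadenylated RNA of 6 libraries was sequenced as single-end reads of 50 bases (DNBSEQ), per the labels' protocols, which name no step that marks strand. RSEM 1.2.12, HISAT2 2.0.4, DESeq2 1.4.5 and Bowtie2 2.2.5 are listed, without roles, in the submitters' processing notes, as is the build GRCm38.p6. The authors deposited expected counts, 30.1% of them not whole, and a second table worked out from its values to be FPKM. Expected counts were rounded to whole numbers, filtered with filterByExpr (12283 genes, 99.9% of counts), given TMM scaling factors and fitted in edgeR 4.0.16 (robust quasi-likelihood test, treatment as the one term) under R 4.3.3, with Benjamini-Hochberg adjustment over all genes and a threshold of 0.05. limma 3.58.1 (on counts by voom, and on log2 of the deposited FPKM plus 1) and DESeq2 1.42.0 were alternatives, and the fits were checked on simulated data. SE values were worked out from the edgeR fit. They are the absolute log2 fold change divided by the square root of the test's F statistic. The Bcl2l1 to Bcl2l11 ratio used exact permutation tests, and the other ratios were not tested.

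Deviations from the group means correlated at 0.91, 0.34 and 0.94 for libraries numbered 1, 2 and 3, all above 0.1, so the numbers were taken as pairs. Among unmatched libraries CDs 1 with untreated 2 (0.68) and CDs 2 with untreated 1 (0.14) also exceeded 0.1, and the other 4 were below 0, so numbers 1 and 2 are not clearly told apart. Deviations of 3 libraries from their own mean sum to 0. A shift shared by the libraries numbered 3 therefore by itself pushes the values among numbers 1 and 2 upward. For that reason the check cannot establish the pairing of numbers 1 and 2. The pairing comes from this check, not from a statement in the labels. Within each group no library was a copy of another (smallest chi-square per degree of freedom 11.5). Since separate cultures are not stated, p-values speak for the variation among these libraries alone, and that variation may be technical. Totals varied 1.13-fold, and precision is further limited by 3 libraries a group.

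The members and gene lists were chosen with earlier results of these data known. From each list the 2 genes with the smallest unadjusted p are named, within a rule that allows 4, plus those among the first 4 that DESeq2 with the block called. Genes were matched to RefSeq by Entrez number, which succeeded for 17570 of 17691. By gene span, 6 members overlap another annotated gene, whose reads cannot be told apart by strand.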

Additional observations from a re-analysis of the deposited data

How the results depend on the processing

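Over all genes edgeR called 0 without the replicate block, with either scaling, with or without the filter, and with any 1 library left out (0 to 0). DESeq2 called 14 without the block. With the replicate block edgeR called 5, limma-voom 7 and DESeq2 1210. In blocked fits added after seeing the data, DESeq2 called 44, 229 and 861 genes without both libraries numbered 1, 2 and 3, and edgeR called 0, 899 and 1835. Members called were 0 in edgeR, 1 in DESeq2 with the block, 1 in either tool with the block without number 2, and 1 in DESeq2 and 2 in edgeR with the block without number 3. Apart from these calls of Bcl2 and Bcl2l1 the block changed no member's call, and leaving out 1 library gave 0 calls (0 to 0).

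With 1 library left out, log2 fold changes ranged up to 0.63 for Mcl1, 2.99 for Bcl2, 0.37 for Bak1, 1.15 for Bcl2l11, 1.28 for Pmaip1, 1.93 for Bmf, 3.15 for Bcl2a1d, 2.95 for Bcl2a1b, 0.42 for Tradd and 1.25 for Cflar (without untreated 3) and 0.20 for Bad (without CDs 1), and down to -0.63 for Bik (without CDs 2). The other ends, and other turned directions, follow. Without CDs 3 values became -0.14 for Mcl1, -0.12 for Bcl2, -0.27 for Bak1, -0.38 for Bcl2l11, -0.26 for Pmaip1, -0.04 for Bad, -0.78 for Bcl2a1d, -0.98 for Bcl2a1b, 0.11 for Bik, -0.05 for Tradd and -0.25 for Cflar. Without untreated 1 they were -0.16 for Bak1, -0.10 for Bcl2a1d and -0.19 for Bcl2a1b, and without untreated 2 -0.11 for Bak1 and -0.19 for Bcl2a1b. Without untreated 3 Bid had 0.17 and Bbc3 0.02, and without CDs 1 Bid had 0.07. Bak1 was -6.2e-05 with DESeq2 size factors and -5.3e-05 in DESeq2, and with the block but without number 2 it was -0.05 in both tools, where Bad was -0.02. Bid was 0.0037 with the block in edgeR without number 1, and Bad -0.01 in edgeR without number 3, with or without the block (0.01 in DESeq2 with it). The log2 Bcl2l1 to Bcl2l11 ratio difference ranged from -0.30 to 0.30 with 1 library left out (0.06 without untreated 1, 0.04 without untreated 2), was 0.02 with a pseudocount of 1, -0.07 on counts and -0.04 with the replicate block. Of the members, Bcl2l1 and Bax kept their sign with any 1 library left out, and the other 8 did not. The term for the replicate number called 7335 genes in edgeR and 7287 in limma-voom, and 8 members in both. The cause of the other changes was not tested.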

Other observations

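The 2 deposited tables together imply a length per gene and library, the count divided by the FPKM and by the library total, which moves when the estimated mix of transcripts changes. For Bcl2l11 it was 4451, 4656 and 4832 bases in CDs 1 to 3 and 4514, 4639 and 4718 bases in untreated 1 to 3, a highest value 1.086 times the lowest. The order by number was the same in both groups, with library 1 shortest and library 3 longest. For Bcl2l1 it was 2553, 2485 and 2471 bases in CDs 1 to 3 and 2559, 2572 and 2486 bases in untreated 1 to 3, a span of 1.041 times. For Bad, Bbc3 and Bid the spans were 1.053, 1.027 and 1.01 times. Bcl2, Mcl1, Bax, Bak1 and Pmaip1 kept one length, with spans of 1.003 to 1.006 times. The median span over the 9238 genes with at least 50 counts in every library was 1.012 times. By spread of the log2 length over the 6 libraries, 89.2% of these genes lay under Bcl2l11, 82.3% under Bad and 80.5% under Bcl2l1. Which transcripts account for the shifts was not tested.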
